A study of Mus musculus with 4 samples.

Results

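The transcription factor p63 and 9 regulators of the epithelial or mesenchymal state of a cell were examined in cells sorted from the mouse submandibular gland, a salivary gland. The members were Trp63, Snai1, Snai2, Zeb1, Zeb2, Twist1, Grhl2, Ovol1, Esrp1 and Esrp2. They were taken by the gene name that the array design gives to a probe, which found 16 of the 55681 probes, or 10 of the 36282 genes, on the array. The 2 groups were stem cells and non-stem cell epithelia, each with 2 one-colour arrays, both sorted by flow cytometry from C57BL/6 mice aged 8 to 10 weeks. The sort markers and the number of animals behind each array are not stated in the sources used here. Among the markers of gland cells, Krt14 (basal cells) averaged a log2 signal of 5.30 in stem cells, against 2.14 in non-stem cell epithelia, and Aqp5 (acinar cells) averaged 4.66 in stem cells, against 7.85 in non-stem cell epithelia. Every log2 signal here is relative to the 75th percentile of its array.

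p63, made from Trp63, belongs to the p53 family and is carried by the basal cells of many epithelia, among them basal duct and myoepithelial cells of salivary glands. Its gene gives rise to several transcripts with different starts and ends. The Snail, Zeb and Twist proteins repress epithelial genes such as that of E-cadherin, and they act in the change from epithelial to mesenchymal cells. Grhl2 and Ovol proteins act the other way and keep cells epithelial, while Esrp1 and Esrp2 direct the splicing of messenger RNAs toward their epithelial forms.

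The signal of a member depends on where its probe lies, and each probe is 60 bases long. Trp63 had 4 probes, Grhl2, Esrp1 and Zeb2 had 2 each, and each of the other 6 genes had 1. The sequences of 3 tested probes are given because Trp63, Grhl2 and Esrp1 were each read by a pair of tested probes, and the capitals mark an uninterrupted run of 6 CAG triplets (bases 21 to 38) in the Trp63 probe.
Trp63 A_55_P2161055: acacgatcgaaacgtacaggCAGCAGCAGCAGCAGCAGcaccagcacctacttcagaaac
Grhl2 A_51_P408821: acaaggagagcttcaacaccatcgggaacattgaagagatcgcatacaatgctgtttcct
Esrp1 A_55_P2033767: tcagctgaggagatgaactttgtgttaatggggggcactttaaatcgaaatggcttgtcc
By the coordinates in the scanner files (mm9), the Trp63 probe lies at chr16:25871159-25871218 on the plus strand, the Grhl2 probe at chr15:37239426-37239485 on the plus strand and the Esrp1 probe at chr4:11284629-11284688 on the minus strand.

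On 1 slide scanned at 1 time, the arrays' 75th percentiles were 30.42 and 43.29 in stem cells, against 74.83 and 62.96 in non-stem cell epithelia. No spot was saturated. Between 34.6% and 41.3% of probes were well above background on an array. Spike-in controls, which are added in fixed amounts, stood 2.26 higher (median log2 difference over 7 of them) in stem cells after the percentile shift, so every change below is relative to the array's own signal and not to the spike-ins. Of the 22645 probes tested, each well above background on 2 or more of the 4 arrays, 28.8% passed an adjusted p of 0.05 by limma. The share was 12.9% for higher and 15.9% for lower in stem cells, so that 44.8% of calls were higher, against 27.4% with normexp background correction and 58.6% with the percentile taken over detected probes.

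Of the 16 member probes, 8 could be tested, from the 5 genes Trp63, Snai2, Grhl2, Esrp1 and Esrp2. A probe of Trp63 and that of Snai2 rose in stem cells, 7.93-fold and 4.06-fold. Esrp2 and 1 of the 2 Esrp1 probes fell to 0.547-fold and 0.664-fold. Neither Grhl2 probe passed the test. Thus 4 of 8 probes passed, 2 each way, where 28.8% of all probes did. By brightest tested probe, Snai2 was higher, Esrp1 and Esrp2 were lower, and Trp63 and Grhl2 did not pass. On that basis, 28.9% of all 17362 genes passed, 13.1% higher and 15.8% lower. The filter on dim probes left out Zeb1, Zeb2, Twist1, Ovol1 and Snai1 altogether, so these counts do not speak for all 10 genes.

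**Figure D1:**
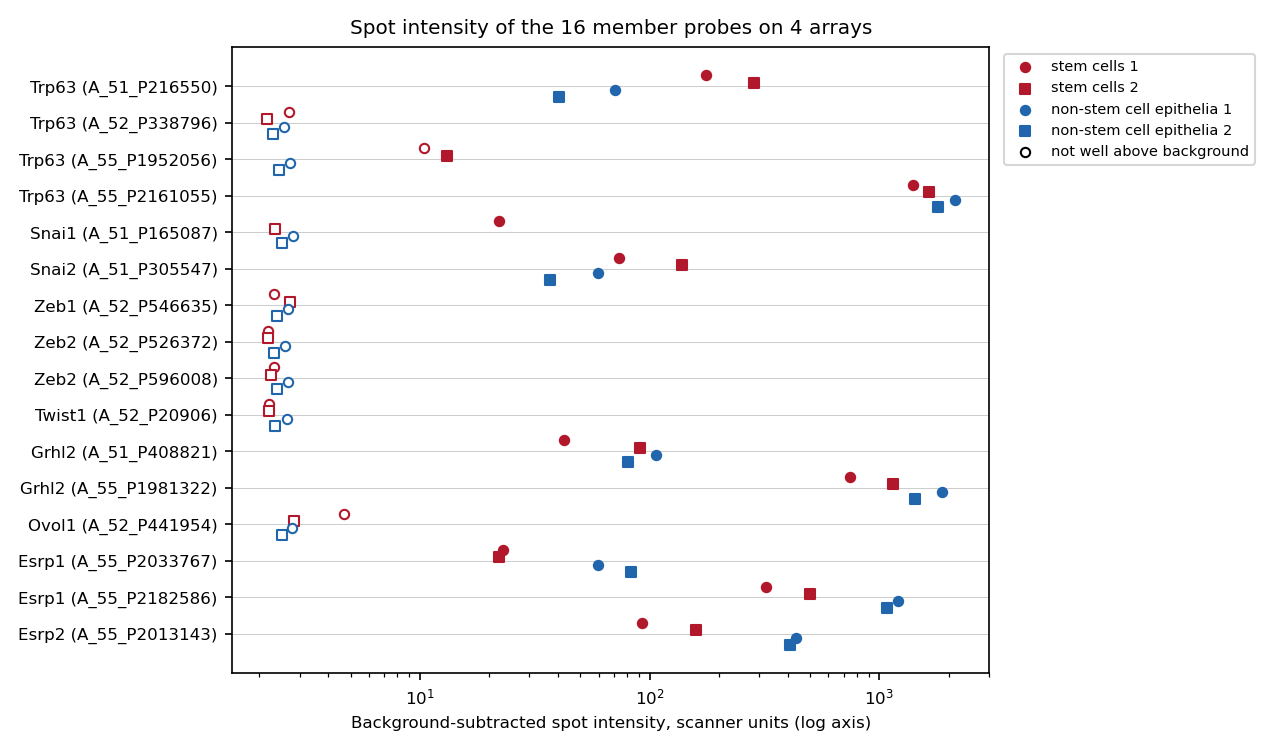
Background-subtracted spot intensity (log axis) of the 16 member probes, with red for stem cells, blue for non-stem cell epithelia and open symbols for spots not well above background. The probes of Zeb1, Zeb2, Twist1 and Ovol1 have open symbols only, and Snai1 has 1 filled symbol, on stem cells replicate 1.

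Trp63 was read differently by its 4 probes, which lie along 70.7 kb of chromosome 16. Probe A_51_P216550, the farthest along the gene (25892012 to 25892071, plus strand), had intensities of 176 and 284 in stem cells, against 70.8 and 40.3 in non-stem cell epithelia. Its log2 signals were 2.54 and 2.71 in stem cells, against -0.08 and -0.65 in non-stem cell epithelia. The groups lay far apart and did not overlap. With 2 arrays per group, here and below, a lack of overlap alone says little, as the log2 signals of the undetected Zeb1 probe did not overlap either. The log2 change was 2.99 ± 0.24 (SE, n = 2 arrays per group; limma adjusted p = 0.00149), and it is the 1 member change that exceeds the shift of the spike-ins. It stayed past the threshold in 12 of the 12 alternatives that hold this probe, at 1.78 to 3.27. In bulk RNA of sorted cells, more cells that carry a transcript and more of it per cell cannot be told apart.

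The probe with the CAG run, A_55_P2161055, gave another picture. Its intensities were 1406 and 1640 in stem cells, against 2131 and 1793 in non-stem cell epithelia. After the percentile shift its log2 signals were 5.53 and 5.24 in stem cells, against 4.83 and 4.83 in non-stem cell epithelia. The groups did not overlap, but the log2 difference of 0.55 ± 0.17 (SE, n = 2 per group) did not pass (limma adjusted p = 0.0669). Its 95% interval, 0.11 to 1.00, does not meet that of the other tested probe, 2.39 to 3.58, and the difference between the probes was not tested. It passed without stem cells replicate 2 (adjusted p = 0.0301), with a filter on all 4 arrays (0.0287) and with an intensity trend and robust variances (0.000348), and with normexp the difference was 0.07. Where each gene is represented by its brightest tested probe, Trp63 is read by this probe alone and is not called.

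Among all probes of the array, 3 hold a CAG run of at least 6 triplets. The other two belong to Crebbp, a transcriptional co-activator, and BC051142, and their log2 differences were 0.60 ± 0.16 and 0.50 ± 0.33 (SE). All 3 were well above background on the 4 arrays, as were 11 of the 13 probes with at least 4 triplets (84.6%), against 32.7% of all probes. Over the 11 tested ones the median log2 difference was 0.42, with a range of -0.30 to 0.60. Whether such probes bind transcripts of other genes was not tested.

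The array's annotation lists NM_011641 and 3 other RefSeq transcripts for A_51_P216550, and NM_001127261 and 2 others for A_55_P2161055, with none in common. These lists hold at most 4 accessions per probe, so they need not be complete, and the values cannot be given to single Trp63 transcripts. The other two Trp63 probes carry the accessions of complementary DNA clones. Probe A_55_P1952056, at the start of the stretch, had intensities of 10.5 and 13.1 in stem cells, against 2.74 and 2.44 in non-stem cell epithelia. It was well above background on stem cells replicate 2 alone. The average of both stem cell arrays was 1.84-fold above the bound set for non-stem cell epithelia. That average takes in replicate 1, which was not well above background, so it is no lower bound for the group. Probe A_52_P338796, 46.4 kb farther on, had intensities of 2.69 and 2.16 in stem cells, against 2.58 and 2.30 in non-stem cell epithelia, none of them well above background.

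**Figure D2:**
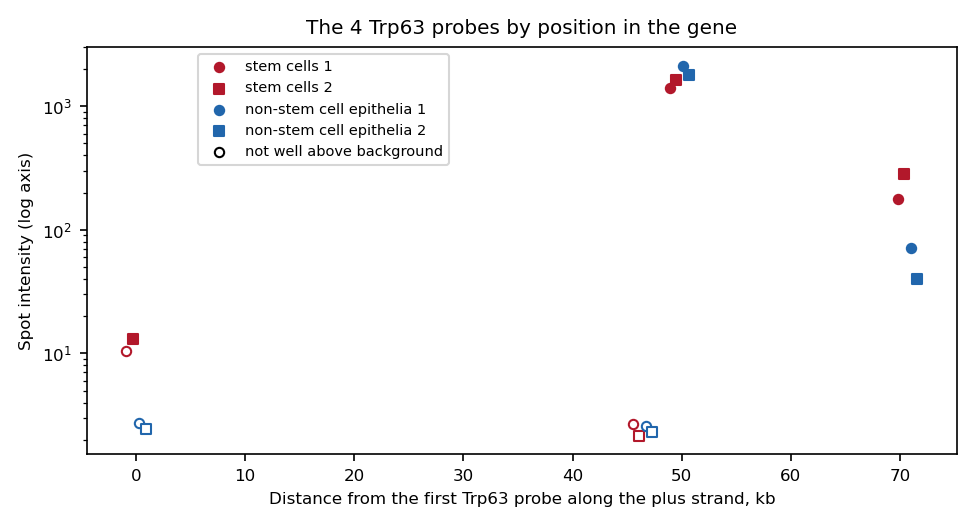
Spot intensity (log axis) of the 4 Trp63 probes against their distance in kb from the first probe along the plus strand, small offsets separating the arrays. At 70.7 kb the stem cell arrays lie above both non-stem arrays, while at 49.8 kb all 4 arrays lie between 1406 and 2131.

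Snai2, which encodes the repressor Slug, rose with the farthest Trp63 probe. Its probe (chromosome 16, 14709361 to 14709420, plus strand) had intensities of 73.7 and 138 in stem cells, against 59.7 and 37.0 in non-stem cell epithelia. The log2 signals were 1.28 and 1.67 in stem cells, against -0.33 and -0.77 in non-stem cell epithelia, with no overlap. The log2 change was 2.02 ± 0.24 (SE, n = 2 per group; limma adjusted p = 0.00451), under the 2.26 of the spike-ins. Without non-stem cell epithelia replicate 2 it was 1.80 and the call was lost (adjusted p = 0.0549), and with normexp it was 1.00 and still past the threshold.

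Snai1, the Snail repressor itself, was detected on 1 array. Its intensity was 22.2 on stem cells replicate 1 and 2.34 on stem cells replicate 2, against 2.82 and 2.51 in non-stem cell epithelia. The 2 stem cell arrays thus disagreed, and the last 3 values were not well above background. The average of both stem cell arrays was 1.13-fold above the bound set for non-stem cell epithelia. That average takes in the undetected replicate 2, so it rests on replicate 1 and is no lower bound for the group.

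Zeb1, Zeb2 and Twist1 were not detected in either group. Zeb1 had intensities of 2.33 and 2.72 in stem cells, against 2.68 and 2.39 in non-stem cell epithelia. Both Zeb2 probes lay between 2.18 and 2.32 in stem cells and between 2.33 and 2.68 in non-stem cell epithelia. Twist1 had 2.22 and 2.21 in stem cells, against 2.63 and 2.35 in non-stem cell epithelia. None of these 16 spots was well above background, so no difference can be given for these 3 repressors. Ovol1, a zinc finger factor of the epithelial side, had intensities of 4.69 and 2.84 in stem cells, against 2.78 and 2.52 in non-stem cell epithelia, also not well above background.

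**Figure D3:**
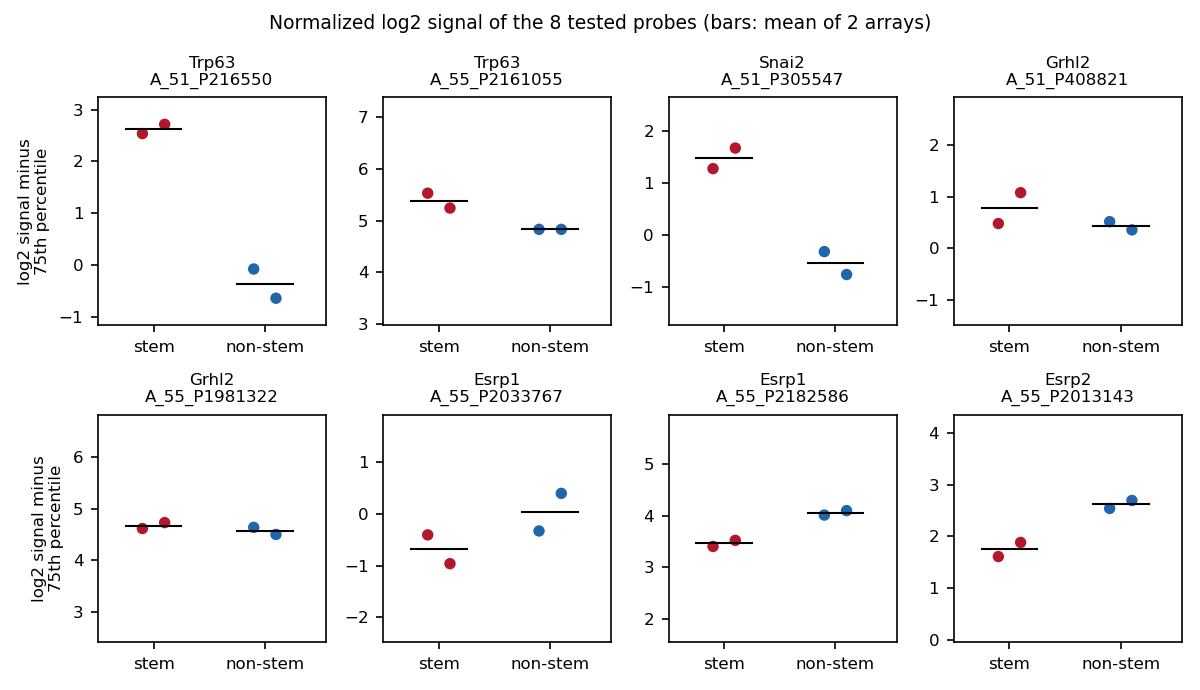
Log2 signal relative to the array's 75th percentile for the 8 tested probes, with stem cells on the left and non-stem cell epithelia on the right of each panel, 1 point per array and bars at the means. All panels span the same log2 range. The groups overlap in both Grhl2 panels and are farthest apart for Trp63 probe A_51_P216550.

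Esrp2 fell in stem cells. Its probe (chromosome 8, 108655089 to 108655148, minus strand) had intensities of 92.9 and 160 in stem cells, against 435 and 407 in non-stem cell epithelia. The log2 signals were 1.61 and 1.88 in stem cells, against 2.54 and 2.69 in non-stem cell epithelia, with no overlap. The log2 change was -0.87 ± 0.18 (SE, n = 2 per group; limma adjusted p = 0.0217). The call was lost without non-stem cell epithelia replicate 1 (adjusted p = 0.0942) or replicate 2 (0.144) and without the filter on dim probes (0.119), and the value kept its sign, at -1.01 to -0.73 over 13 alternatives.

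Esrp1, the closely related splicing regulator, was lower on both of its probes, and 1 passed. Probe A_55_P2182586 (chromosome 4, 11260208 to 11260267, minus strand) had log2 signals of 3.40 and 3.52 in stem cells, against 4.01 and 4.09 in non-stem cell epithelia. It fell by 0.59 ± 0.16 on the log2 scale (limma adjusted p = 0.0439). The call was lost without stem cells replicate 1 (adjusted p = 0.108), without non-stem cell epithelia replicate 1 (0.142) or without its replicate 2 (0.202), and also with quantile normalization (0.0685), the percentile over detected probes (0.0688) or no filter on dim probes (0.130). The printed probe had log2 signals of -0.41 and -0.96 in stem cells, against -0.33 and 0.39 in non-stem cell epithelia, a difference of -0.72 ± 0.32 (adjusted p = 0.149) in which the nearest arrays of the groups differ by less than the replicates of either. Without stem cells replicate 1 that difference was -0.99. Over the 12 alternatives that hold this probe it was -1.08 to -0.28, and in 10 of them it stayed short of the threshold.

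Grhl2, a grainyhead factor that activates E-cadherin and claudin genes, was well above background on all 4 arrays with both probes and overlapped between groups with both. Probe A_55_P1981322 (chromosome 15, 37293139 to 37293198, plus strand) had log2 signals of 4.62 and 4.73 in stem cells, against 4.64 and 4.50 in non-stem cell epithelia. Its log2 difference was 0.10 ± 0.16 with a 95% interval of -0.30 to 0.51, and it turned to -0.33 with normexp. The printed probe had 0.48 and 1.08 in stem cells, against 0.52 and 0.36 in non-stem cell epithelia, a difference of 0.34 ± 0.24 with an interval of -0.27 to 0.95. The intervals leave room for differences of that size, and a missed threshold with 2 arrays per group does not show equal levels.

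**Figure D4:**
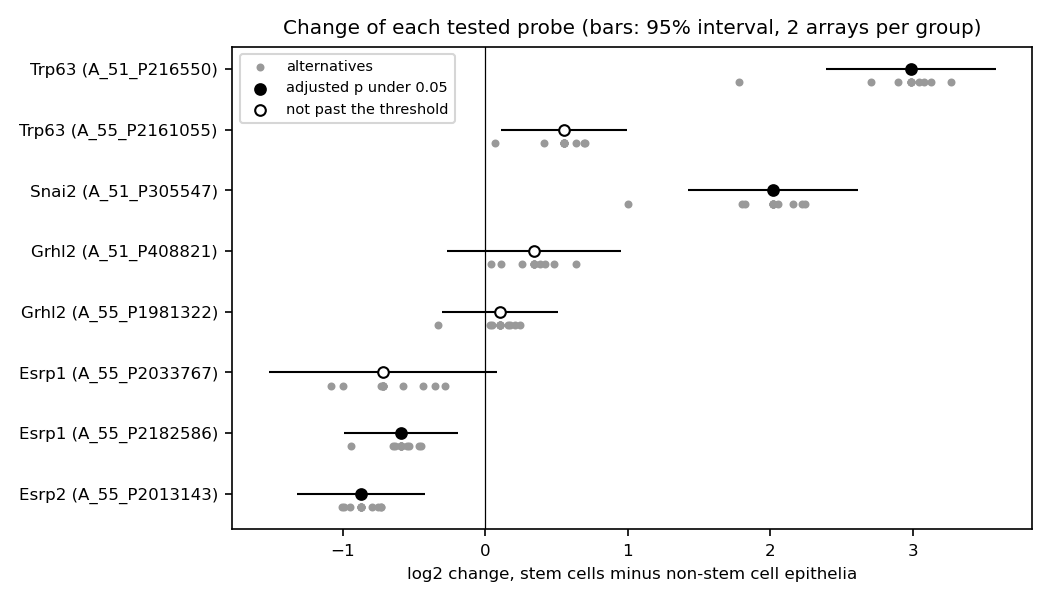
Log2 change, stem cells minus non-stem cell epithelia, of each tested probe with its 95% interval (limma, 2 arrays per group). Filled points passed an adjusted p of 0.05, open points did not, and grey points give the same probe under the alternatives. The grey points cross 0 for Grhl2 probe A_55_P1981322 alone.

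Most tested genes that p63 is linked to in basal cells were higher in stem cells. Of the 22 genes in the list, Dsg3, Bnc1 and Igfbp3 stood well above background on no array. Of 19 tested genes of that list, 17 rose and 0 fell, with a median log2 change of 3.04, where 13.1% of all genes rose and the median over all genes was -0.01. The list was drawn up with these values known in part and is not independent evidence of its direction. Ly6d, a surface protein of the Ly6 family, rose by 4.44 ± 0.17 (SE), Krt17, a basal keratin, by 3.79 ± 0.17 and Pkp1, a desmosome protein, by 3.55 ± 0.18. Krt17 had log2 signals of 5.12 and 5.34 in stem cells, against 1.41 and 1.49 in non-stem cell epithelia. Fgfr3, a fibroblast growth factor receptor, was at least 16.6-fold higher, because both non-stem arrays had it not well above background. Neither non-stem array detected Jag2 or Dsc3 either. Fgfr3, Jag2 and Dsc3 were thus in the test through their stem cell signals alone. With a filter on all 4 arrays, 14 genes of this list were higher and 0 lower. The integrin genes Itga6 and Itga3 had log2 differences of 0.39 ± 0.18 and 0.04 ± 0.23 and did not pass. Over the 13 alternatives, 12 to 18 genes of this list were higher and 0 lower.

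The epithelial side, whose genes the repressors can target, was read from junction and polarity genes. Of 23 tested, 5 rose and 5 fell, with a median of 0.08, where 13.1% of all genes rose and 15.8% fell. Cldn4, a tight junction claudin, rose by 2.51 ± 0.22 and the duct keratin Krt19 by 1.83 ± 0.33. Epcam, an adhesion molecule of epithelial cells, fell by 1.23 ± 0.20, with log2 signals of 3.55 and 3.80 in stem cells, against 4.74 and 5.06 in non-stem cell epithelia. Crb3, a polarity protein, fell by 1.19 ± 0.24. Cdh1, which encodes E-cadherin, had a log2 difference of 0.28 ± 0.15 (limma adjusted p = 0.226). Without non-stem cell epithelia replicate 1 or 2 the counts were 2 higher and 0 lower, so that Epcam (adjusted p = 0.0542 and 0.0901) and Crb3 (0.0584 and 0.125) were not called. The counts were 2 higher and 9 lower with normexp, and 1 higher (Cldn4) and 0 lower without the filter on dim probes.

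Of 9 tested mesenchymal genes 3 rose and 0 fell, with a median of 0.34, where 13.1% of all genes rose and 15.8% fell. Of the 23 genes in the list, 10 stood well above background on no array, among them Cdh2 (N-cadherin), Fn1 (fibronectin) and Col1a1. Tgfbi, a secreted matrix protein, was at least 4.77-fold higher, Dcn (decorin) rose by 2.14 ± 0.16 and Sparc by 1.05 ± 0.17. Tgfbi was in the test through its stem cell signal alone, since neither non-stem array detected it. Of the 3 risers, only Dcn and Sparc were detected in each group. With a filter on all 4 arrays, 2 genes of this list were higher and 1 lower. Vim, the intermediate filament of mesenchymal cells, had a log2 difference of 0.34 ± 0.16 (limma adjusted p = 0.178). Sparc was not called without non-stem cell epithelia replicate 1 (adjusted p = 0.0614) or 2 (0.0932), nor without the filter on dim probes (0.091).

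Of 15 tested relatives of the members and other factors of the epithelial or mesenchymal state, 3 rose and 2 fell, with a median of 0.31, where 13.1% of all genes rose and 15.8% fell. Grhl3, the grainyhead relative of Grhl2, rose by 1.57 ± 0.33, being above background on 1 non-stem array. Tead1, the DNA-binding partner of Yap, rose by 1.46 ± 0.19 and Tfcp2l1, a grainyhead-related factor of ducts, by 1.44 ± 0.17. Trp73, the other p53 relative, fell by 2.04 ± 0.40, with 1 of the stem cell arrays above background. Grhl1 and Ovol2 had log2 differences of 0.15 ± 0.19 and 0.13 ± 0.17, while Snai3, Twist2, Foxc2, Prrx1, Gsc and Klf8 stood well above background on no array. Without non-stem cell epithelia replicate 1 or 2, 1 gene of this list was higher and 0 lower. Tead1 (adjusted p = 0.051 and 0.0725) and Trp73 (0.0637 and 0.131) were then not called, nor was Grhl3 without replicate 1 (0.0734) or Tfcp2l1 without replicate 2 (0.0582). Without the filter on dim probes the list had 0 higher and 0 lower, with adjusted p of 0.090 for Grhl3, 0.083 for Trp73, 0.056 for Tfcp2l1 and 0.062 for Tead1, and with an intensity trend and robust variances it had 7 higher and 2 lower.

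Among 11 tested genes that Esrp proteins splice or that splice with or against them, 1 rose and 1 fell, where 13.1% of all genes rose and 15.8% fell. Cd44, whose variable exons are a known Esrp target, fell by 2.27 ± 0.19 on its brightest probe, with log2 signals of 0.60 and 0.98 in stem cells, against 3.06 and 3.06 in non-stem cell epithelia. All 4 tested Cd44 probes were lower in stem cells and 3 passed. Qk, an RNA-binding protein that also directs splicing, rose by 0.94 ± 0.19, a call lost without non-stem cell epithelia replicate 1 (adjusted p = 0.0674) or 2 (0.132) and without the filter on dim probes (0.119). Fgfr2 and Ctnnd1, further targets, had log2 differences of -0.16 ± 0.21 and 0.16 ± 0.21. The probes were not assigned to spliced forms, so splicing itself was not measured here.

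TGF-beta family signals can induce the Snail and Zeb factors. Of 12 tested genes of that list 5 rose and 0 fell, with a median of 0.15, where 13.1% of all genes rose and 15.8% fell. The list mixes ligand, receptor and inhibitor genes, so its counts give no direction of signalling. The ligand genes Bmp7 and Tgfb2 rose by 2.91 ± 0.17 and 2.21 ± 0.20, the inhibitor gene Smad7 by 1.45 ± 0.27 and the co-receptor gene Tgfbr3 by 1.25 ± 0.16. The receptor genes Tgfbr1 and Tgfbr2 had log2 differences of 0.24 ± 0.19 and 0.07 ± 0.19. Without non-stem cell epithelia replicate 1 or 2, 3 and 2 genes were higher, and Smad7 (adjusted p = 0.0883 and 0.133) and Tgfbr3 (0.0578 and 0.0674) were not called. Without the filter on dim probes 2 genes were higher, and Smad7 (0.086) and Tgfbr3 (0.072) were not among them.

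**Figure D5:**
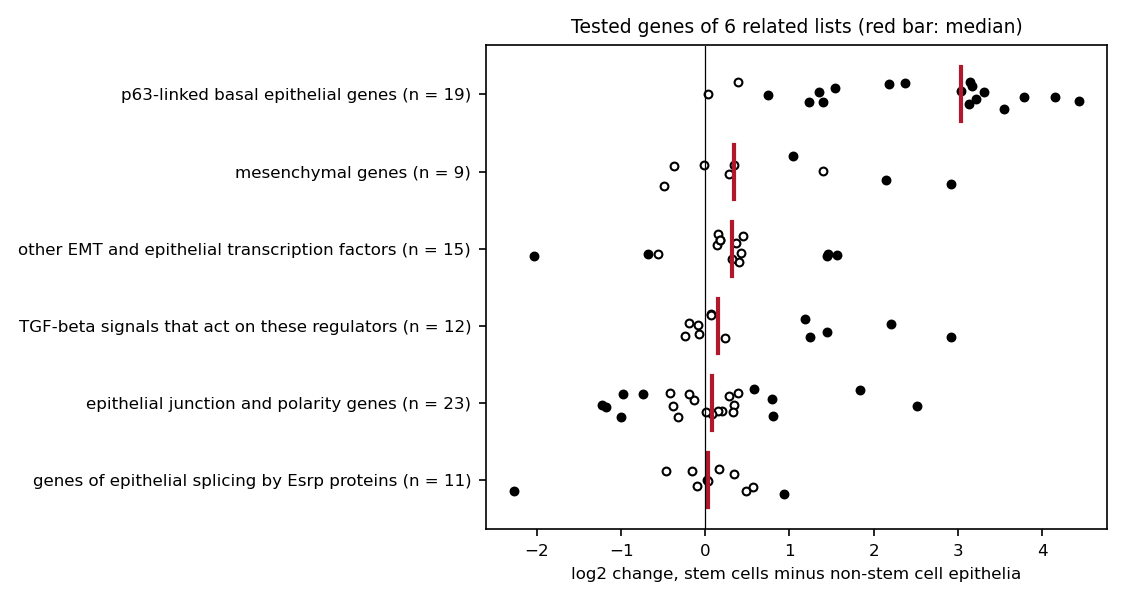
Log2 change, stem cells minus non-stem cell epithelia, of each tested gene in 6 related lists, filled where the adjusted p was under 0.05, with a red bar at the list's median. The p63-linked basal genes have a median of 3.04, and the medians of the other 5 lists lie between 0.03 and 0.34.

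Cells of other types also carry Snail, Zeb and Twist factors, so their markers were read beside these results. Fibroblast markers had a summed signal, in multiples of the 75th percentile, of 22.1 and 23.8 in stem cells, against 9.28 and 10.0 in non-stem cell epithelia, and 5 of 8, among them Col1a1, Pdgfra and Thy1, stood well above background on no array. In stem cells most of the fibroblast sum was Dcn, with log2 signals of 4.10 and 4.29. Of the 2 tested, Dcn rose and Col1a2 did not pass. Beside the counts of called markers here, 13.1% of all genes rose and 15.8% fell. Myoepithelial markers, of cells that carry p63 and Snai2, summed to 68.9 and 73.0 in stem cells, against 75.3 and 76.6 in non-stem cell epithelia, with 1 of 6 tested higher (Mylk) and a log2 difference of -0.11 ± 0.17 for Acta2. Endothelial markers summed to 19.6 and 17.6 in stem cells, against 24.0 and 25.8 in non-stem cell epithelia, with 2 of 5 tested higher and 1 lower and Cdh5 and Emcn not well above background. Macrophage and granulocyte markers summed to 83.6 and 63.9 in stem cells, against 39.5 and 45.0 in non-stem cell epithelia. Most of this sum was 1 Itgam probe, with log2 signals of 6.32 and 5.94 in stem cells, against 5.18 and 5.36 in non-stem cell epithelia. Another Itgam probe had a log2 difference of 0.61 ± 0.29 and did not pass (limma adjusted p = 0.170). The tested Csf1r probes differed in sign. By brightest probe, 1 of 2 tested markers of this list was higher (Itgam), and Ptprc, Cd68, Adgre1, Lyz2, S100a8 and S100a9 reached no array above background. The part of these cells in the Snai2 and Trp63 values was not tested.

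Erythroid markers fell, 4 of 4 tested, and acinar markers fell in 5 of 6, where 13.1% of all genes rose and 15.8% fell. Of the erythroid markers, Slc4a1 was well above background on the non-stem arrays alone and entered the test only through them. The acinar sum was 1730 and 1643 in stem cells, against 6970 and 7659 in non-stem cell epithelia. Duct markers rose in 4 of 7 and fell in 1. Of nerve and Schwann markers 1 of 2 rose and 1 fell, and neither the 3 tested lymphocyte markers nor the 1 pericyte and smooth muscle marker passed. The part of a shift in gland cell types in the members' values was not tested.

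The genes closest to Trp63 over the 4 arrays differed with the probe. Likeness was the root mean square difference of log2 signals, each probe centred on its own mean. By the brightest tested probe, A_55_P2161055, the nearest were Fam160a1 (0.0041), Arhgap17 (0.023), Kpna3 (0.026), Rsad1 (0.026) and Milr1 (0.027). By probe A_51_P216550, read in the same way after its values were seen, they were the cyclin gene Ccnd2 (0.064), the histone gene H2ac4 (0.10), the transcription factor gene Maff (0.11), the kinase gene Hunk (0.11) and the protease gene Adamts1 (0.13). A change close to that of the Trp63 probe follows from this choice and is not a result.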

How the data were processed

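The authors deposited scanner files of spot intensity on a linear scale, made per the file headers with Agilent Feature Extraction 10.7.3.1, while the submitters' processing notes name version 9.1. Coordinates in the files are on mm9. The deposited series table holds log2 values of the authors, centred on a baseline that stays unknown; its column medians were -0.27 and -0.55 in stem cells, against -0.83 and -0.75 in non-stem cell epithelia. Its difference between stem cells replicate 1 and non-stem cell epithelia replicate 1 correlated at 1.00 with the scanner one, which settles direction. A correlation does not depend on scale and cannot settle it, and the other arrays were not compared in this way.

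Control spots and outlier spots were left out, log2 of the background-corrected intensity was shifted by each array's 75th percentile, with repeated spots averaged. Probes entered the test when 2 or more of the 4 arrays had them well above background. The contrast, stem cells minus non-stem cell epithelia, was fitted with limma 3.58.1 (R 4.3.3, two-sided), and p-values were adjusted over all tested probes by Benjamini-Hochberg, with a threshold of 0.05. A gene of a list counts by its brightest tested probe. Where neither array of a group had a probe well above background, its change is a bound, set against the higher of its own signal and the lowest signal above background on each array. Names came from RefSeq (GRCm38.p6) accessions for 26582 probes, and the other 29099 kept the name in the array design. The genes counted here are distinct names of either kind.

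Members, lists and tests were chosen with earlier results of these data known. Named genes are the members, up to 4 genes per list with the largest changes past the threshold, and the 5 genes nearest Trp63; other genes were named after their values were seen. No label ties replicates to separate animals, so p-values cover the spread among these arrays alone, which may be technical, and their number limits the precision. Alternatives changed the background correction, scaling, filter, variance model, source of values, block, unit of the fit and each array in turn.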

Additional observations from a re-analysis of the deposited data

Results flagged for a closer look

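A few signals stood outside the comparison because their probes were well above background on fewer than 2 arrays or because they were controls. Snai1 had an intensity of 22.2 on stem cells replicate 1, where the other stem cell array had 2.34 and the non-stem arrays 2.82 and 2.51. Trp63 probe A_55_P1952056 had an intensity of 13.1 on stem cells replicate 2 and 10.5 on stem cells replicate 1, against 2.74 and 2.44 in non-stem cell epithelia. Spike-in controls stood 2.26 higher in stem cells on the log2 scale (7 spike-ins, range 1.79 to 2.46), and of the called members Trp63 probe A_51_P216550, at 2.99, exceeds that range.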

How the results depend on the processing

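Over the alternatives, the 8 member probes kept direction and side of the threshold in 84 values; 11 lost a call, 5 gained one and 1 turned its sign (Grhl2 probe A_55_P1981322, -0.33 with normexp). The count of lower member probes, 2, was 1 with quantile normalization, 1 with the percentile over detected probes and 0 without the filter; that of higher ones, 2, was 1 with a gene's brightest probe alone, which leaves out Trp63 probe A_51_P216550. Over all probes, 2925 were higher and 3608 lower, against 931 and 838 without the filter, which adds dim probes, 5907 lower with normexp and 4411 higher with an intensity trend and robust variances. Leaving out each array gave 550 to 3626 higher and 723 to 4689 lower probes, and 1 to 3 higher and 0 to 2 lower member probes; the lowest counts came without a non-stem array, where the spread rests on the stem cell pair. Normexp moved the median change by -0.24 and the percentile over detected probes by 0.14. Deviations of arrays with the same number correlated at -0.08, which with 2 arrays per group shows no pairing and does not exclude one; with the replicate block 1 member probe was lower, as Esrp1 was not called (adjusted p = 0.0817). The causes were not tested. Signal over background limits Zeb1, Zeb2, Twist1, Ovol1 and Snai1.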
